A study of Mus musculus with 6 samples.

Results

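Calcineurin is a phosphatase that is switched on by calcium and calmodulin. It removes phosphates from the NFAT transcription factors, which then enter the nucleus and act together with partners such as AP-1 and GATA factors. Kinases such as DYRK1A and GSK3B return NFAT to the cytoplasm, and the RCAN proteins bind calcineurin and restrain it. This pathway is best known from T cells, heart valves and muscle. In the embryo, *Nfatc1* marks endocardium and some endothelium.

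The 10 genes described here are 3 RCAN genes (*Rcan1*, *Rcan2* and *Rcan3*), 3 calcineurin subunit genes (*Ppp3ca* and *Ppp3cb* for catalytic subunits, *Ppp3r1* for the regulatory subunit) and 4 NFAT genes (*Nfatc1*, *Nfatc2*, *Nfatc3* and *Nfatc4*). They were found by gene symbol among 23420 listed genes, and all 10 were among the 17168 genes tested. The set was chosen by family name with the control and mutant values of these same libraries already known, including the lower level of *Rcan2*. Differences between control and mutant pools are therefore given for these genes as a description. The test over all genes included them, and nothing is read from its outcome for them.

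RNA was sequenced from whole embryonic mouse lungs of stage E11.5dpc (days post coitus), when branching of the lung has begun. The 3 control pools carried Raptorf/+; ShhCre/+ and the 3 mutant pools carried Raptorf/f; ShhCre/+, with 3 or 4 lungs of one genotype in each pool. *Raptor* (*Rptor*) encodes the scaffold protein of mTOR complex 1 (mTORC1). Both groups carried the Cre knock-in at *Shh*, which acts in the lung epithelium, so that the controls also carried a floxed copy open to deletion there beside an intact copy. Mesenchyme, vessels and blood were in the same pools and are not targeted by this Cre. The values are normalized counts, in which a gene's reads were scaled by the size factor of its library. Between 20197642 and 21276090 reads per pool were recovered from them. In bulk tissue, fewer cells of a type and less RNA per cell cannot be told apart.

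For the libraries as a whole, limma on log2(normalized count + 1) called 86 genes at an adjusted p under 0.05, or 0.501% of those tested. Without control pools 1, 2 and 3 in turn the count was 1, 147 and 468, and without mutant pools 1, 2 and 3 it was 12, 21 and 1. The normalized count of *Rptor* was 2126 to 2279 in control pools and 2023 to 2148 in mutant pools, and these ranges overlapped (limma adjusted p = 0.584). The counts are of reads from the full gene and from every cell type in the organ. *Xist*, the RNA of the inactive X chromosome in female cells, had 4599, 309 and 12989 normalized counts in control pools 1, 2 and 3, against 41.9, 466 and 161 in mutant pools 1, 2 and 3. This RNA was therefore uneven between pools (limma adjusted p = 0.164), with control pool 2 inside the mutant range and control pool 3 the highest.

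Regulatory sequences of 2 RCAN genes are shown first, as background. Whether they bear on the counts was not tested. NFAT proteins bind DNA at GGAAA, and the *Rcan1* start site inside the gene is the known NFAT-responsive one. *Rcan2* is shown because it had the largest difference of the 10 genes. Each sequence is the 250 bases before a start site of RefSeq (build GRCm38.p6), printed 5′ to 3′ on the strand of the gene, with GGAAA or its reverse complement TTTCC in capitals.
*Rcan1*, start site inside the gene (chr16:92400079-92400328, minus strand): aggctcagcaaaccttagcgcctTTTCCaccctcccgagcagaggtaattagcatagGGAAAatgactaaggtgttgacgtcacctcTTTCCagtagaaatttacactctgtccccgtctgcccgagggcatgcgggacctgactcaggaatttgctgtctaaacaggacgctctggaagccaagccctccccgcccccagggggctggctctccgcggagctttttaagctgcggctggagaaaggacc
*Rcan2*, first start site (chr17:43801102-43801351, plus strand): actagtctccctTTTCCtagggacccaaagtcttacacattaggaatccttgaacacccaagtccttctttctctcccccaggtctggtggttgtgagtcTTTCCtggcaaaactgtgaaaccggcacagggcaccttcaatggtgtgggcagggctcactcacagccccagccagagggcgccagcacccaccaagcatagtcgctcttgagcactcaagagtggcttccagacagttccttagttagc
*Rcan2*, start site inside the gene (chr17:43952749-43952998, plus strand): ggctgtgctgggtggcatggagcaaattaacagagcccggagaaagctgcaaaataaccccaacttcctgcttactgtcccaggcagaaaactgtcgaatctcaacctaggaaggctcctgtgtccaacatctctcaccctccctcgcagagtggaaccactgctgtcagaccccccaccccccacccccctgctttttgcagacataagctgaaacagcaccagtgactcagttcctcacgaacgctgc

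The window of *Rcan1* held 3 matches, which began 227, 193 and 163 bases upstream of the start site. The first window of *Rcan2* held 2 matches, at 238 and 150 bases, and its window inside the gene held 0. Windows at the other start site of *Rcan1* (chr16:92466170-92466419) and at a further start site of *Rcan2* (chr17:43801601-43801850) held 0. Matches on both strands were counted, each one separately where they overlapped. Among all 32851 windows of this length, 55.6% held at least 1 match, 21.4% at least 2 and 6.4% at least 3. RefSeq windows were found for 8 of the 10 genes, 13 windows in all, and not for *Ppp3ca* and *Nfatc1*. Of the 13 windows, 5 held 0 matches, 3 held 1, 1 held 2 and 4 held 3, the last at *Rcan1*, *Ppp3cb*, *Nfatc2* and *Nfatc4*. A match is a string of letters and no measured binding, and the counts per gene do not separate transcripts from different start sites.

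Of the RCAN genes, *Rcan2* was lower in the mutant lungs, while *Rcan1* and *Rcan3* differed by far less. *Rcan2* (on chromosome 17 of GRCm38 from 43801351 to 44039516) encodes a calcineurin-binding protein that is known for its high level in brain, heart and skeletal muscle. Control pools 1, 2 and 3 held 417, 400 and 399 normalized counts of it, against 241, 182 and 226 for mutant pools 1, 2 and 3. Every mutant pool lay below every control pool, the control values were close together, and mutant pool 2 was the lowest. The means were 405 ± 10.6 (SD, n = 3 pools) and 216 ± 30.5 (SD, n = 3). On the log2 scale the difference was -0.91 with a standard error of 0.11, which is 1.88-fold lower in the mutant pools.

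With each pool left out in turn, the log2 difference of *Rcan2* was between -0.99 and -0.79. It was no longer past the threshold of limma without control pool 1 (log2 difference -0.89), without mutant pool 3 (-0.95) or without the variance trend (-0.91). With the log2 *Xist* value as a covariate, added after seeing the data, the difference was -1.04. The part of the uneven *Xist* level in any difference given here was not tested. The spread of *Rcan2* was 2.60% of the mean in control pools and 14.1% in mutant pools, beside 5.67% from the counting of reads alone.

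*Rcan1* (chromosome 16, from 92391953 to 92470867), the best known feedback inhibitor of calcineurin, had 1186, 1148 and 1143 normalized counts in the control pools, against 1250, 1275 and 1201 in the mutant pools. All mutant values were above the control values, with only a narrow gap between the highest control and the lowest mutant pool. The log2 difference was 0.10 with a standard error of 0.05.

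*Rcan3* (chromosome 4, from 135412308 to 135433853), the third gene of the family, had 509, 543 and 518 normalized counts in the control lungs, against 562, 516 and 556 in the mutant lungs. Its groups overlapped, and its log2 difference was 0.06 with a standard error of 0.07. It was 0.04 without control pool 1 and 0.03 without mutant pool 1. Without mutant pool 2 it was 0.09, and with the *Xist* value as a covariate its sign turned, to -0.03.

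**Figure D1:**
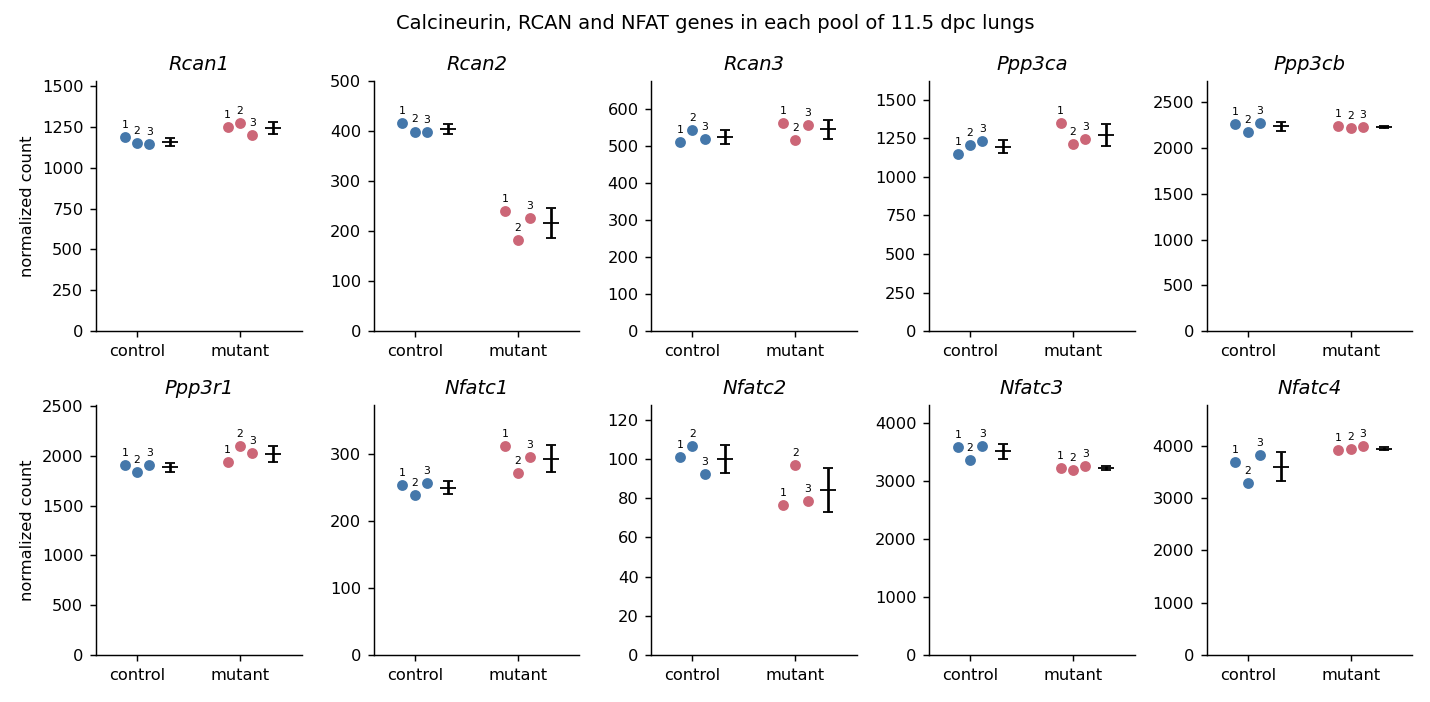
Normalized counts of the 10 genes in each pool (points, numbered by replicate), with a separate axis from 0 for each gene and the mean and SD of 3 pools beside them (black). *Rcan2* is at 399 to 417 in control pools and at 182 to 241 in mutant pools, and for the other 9 genes the groups are close together.

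The calcineurin subunit genes were nearly level between the groups. *Ppp3cb* (chromosome 14, from 20499364 to 20546573), which encodes the beta catalytic subunit, had 2257, 2178 and 2275 normalized counts in the control pools, against 2240, 2220 and 2233 in the mutant pools. The mutant values lay inside the control range, and the log2 difference was -0.0035 with a standard error of 0.04.

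*Ppp3ca* (chromosome 3, from 136670124 to 136937727), which encodes the alpha catalytic subunit, had 1149, 1207 and 1230 normalized counts in the control lungs, against 1351, 1215 and 1247 in the mutant lungs. Its groups overlapped and mutant pool 1 was the highest. The log2 difference was 0.09 with a standard error of 0.06. It was 0.04 without mutant pool 1 and 0.04 with the *Xist* value as a covariate.

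*Ppp3r1* (chromosome 11, from 17159263 to 17200375), which encodes the calcium-binding regulatory subunit, had 1913, 1835 and 1909 normalized counts in the control lungs, against 1940, 2097 and 2033 in the mutant lungs. The groups did not overlap, by a narrow margin. The log2 difference was 0.10 with a standard error of 0.05, and 0.17 with the *Xist* value as a covariate.

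Of the 4 NFAT genes, *Nfatc1* and *Nfatc4* had higher and *Nfatc2* and *Nfatc3* lower mean counts in the mutant pools. *Nfatc4* (chromosome 14, from 55823144 to 55833943) and *Nfatc3* (chromosome 8, from 106058840 to 106130537) had the highest levels per kb of the NFAT genes in these lungs. *Nfatc4* is known from neurons and heart, and *Nfatc3* from thymocytes and muscle. *Nfatc4* had 3690, 3295 and 3831 normalized counts in the control lungs, against 3926, 3939 and 3993 in the mutant lungs. Its mutant values were tightly grouped above all control values, and control pool 2 was the lowest. The log2 difference was 0.14 with a standard error of 0.05. It was 0.07 without control pool 2 and 0.26 with the *Xist* value as a covariate.

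*Nfatc3* had 3575, 3350 and 3590 normalized counts in the control lungs, against 3215, 3186 and 3254 in the mutant lungs. Here all mutant values were below all control values. On the log2 scale the mutant pools differed by -0.12 with a standard error of 0.04, and -0.07 with the *Xist* value as a covariate.

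*Nfatc1* (chromosome 18, from 80606205 to 80713071), which is needed for heart valves and osteoclasts, had 254, 240 and 256 normalized counts in the control pools, against 312, 272 and 296 in the mutant pools. All mutant values were above the control values. On the log2 scale the mutant pools differed by 0.23 with a standard error of 0.09.

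*Nfatc2* (chromosome 2, from 168476410 to 168601657), a main NFAT protein of T cells, had the fewest reads of the 10 genes, 75 to 103 reads per pool. It had 101, 106 and 92.4 normalized counts in the control lungs, against 76.6, 97.1 and 78.5 in the mutant lungs. Its groups overlapped, since mutant pool 2 was above control pool 3. On the log2 scale the mutant pools differed by -0.25 with a standard error of 0.15, and counting alone gives a spread of 10.4% at this depth.

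Across the 10 genes, 6 had higher and 4 had lower values in mutant lungs. Their median log2 difference was 0.07, beside -0.0021 over all tested genes. For 6 of the 10 every pool of one group was above every pool of the other, 4 of them higher in the mutant pools and 2 lower. Over all tested genes this held for 20.2%. The set was chosen with these values known, so nothing is read from this count. A single gene of the 10, *Rcan2*, belonged to the 86 genes called by limma (0.501% of those tested), and nothing is read from this either.

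**Figure D2:**
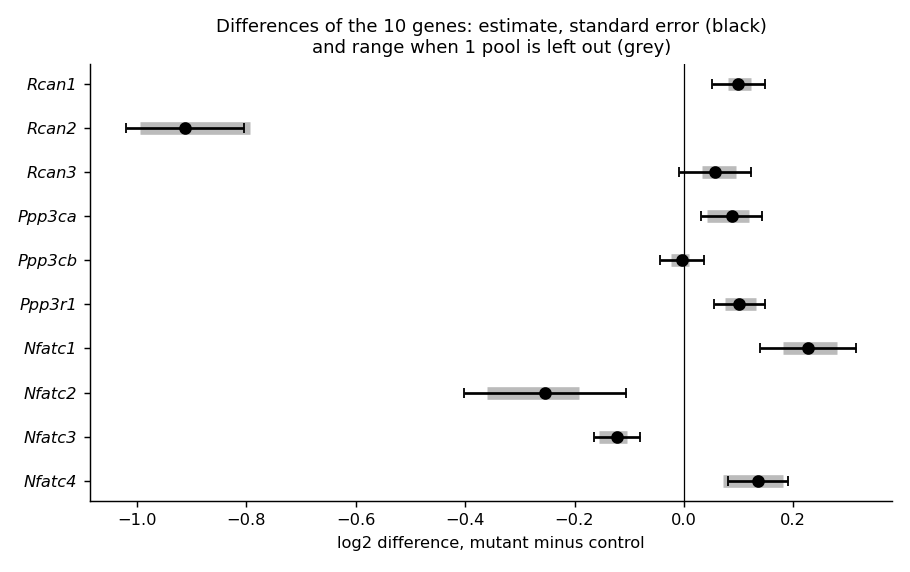
Log2 difference between mutant and control pools for each of the 10 genes (points), with its standard error (black) and the range when 1 pool is left out (grey). *Rcan2* is at -0.91, and the other 9 genes lie between -0.25 and 0.23.

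Levels of different genes were compared per kilobase of exon, with the exons of GENCODE M21. In control pools the order was *Nfatc4* (621 normalized counts per kb), *Ppp3r1* (584), *Rcan1* (376), *Nfatc3* (299), *Ppp3cb* (254), *Ppp3ca* (120), *Rcan3* (102), *Rcan2* (92.7), *Nfatc1* (33.5) and *Nfatc2* (9.45). The SD over the 3 control pools was between 2.01% (*Rcan1*) and 7.71% (*Nfatc4*) of these means. The ranges of *Nfatc4* and *Ppp3r1* overlapped, and no other neighbours in this order did. In mutant pools *Rcan2* stood at 49.5 ± 6.97 per kb and *Nfatc1* at 39.3 ± 2.71 (SD, n = 3 pools each), and the lowest *Rcan2* pool reached the highest *Nfatc1* pool. Among the tested genes with a length, *Nfatc4* was at percentile 89.7 of the level per kb, *Rcan2* at 45.8 and *Nfatc2* at 21.0.

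The make-up of the RCAN transcripts differed between the groups, while their sum was nearly the same. *Rcan2* made up 16.5%, 16.1% and 16.2% of the summed RCAN level per kb in the controls, against 9.67%, 7.51% and 9.39% in the mutants. *Rcan1* made up 65.8% ± 0.52 in the controls and 72.1% ± 1.97 in the mutants (SD, n = 3 pools each). The sum was 571 ± 8.2 per kb in control and 559 ± 10.5 per kb in mutant pools (SD, n = 3 pools each). Within each pool, the log2 ratio of *Rcan1* to *Rcan2* per kb was 2.01, 2.02 and 2.02 for the controls, against 2.88, 3.31 and 2.91 for the mutants. A ratio within a pool is the same whatever size factor is used. The groups could not overlap in it, since every mutant pool was above every control pool for *Rcan1* and below for *Rcan2*. Shares and ratios of these genes restate their counts, so nothing further is read from them.

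Among catalytic subunits, *Ppp3cb* made up 58.3% ± 0.90 of the summed level per kb in the controls and 57.7% ± 1.12 in the mutants (SD, n = 3 pools each). *Ppp3cc*, the gamma catalytic subunit known from testis, made up 14.2% ± 0.35 and 13.3% ± 0.53. Among NFAT genes, *Nfatc4* made up 64.4% ± 1.01 in control and 67.9% ± 0.24 in mutant pools, and *Nfatc3* made up 31.1% ± 0.79 and 27.4% ± 0.08. The log2 ratio of *Nfatc4* to *Nfatc3* per kb was 1.06, 0.99 and 1.11 for the controls, against 1.30, 1.32 and 1.31 for the mutants. These ratios could not overlap, since every mutant pool was above every control pool for *Nfatc4* and below for *Nfatc3*. They restate the counts of these genes.

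**Figure D3:**
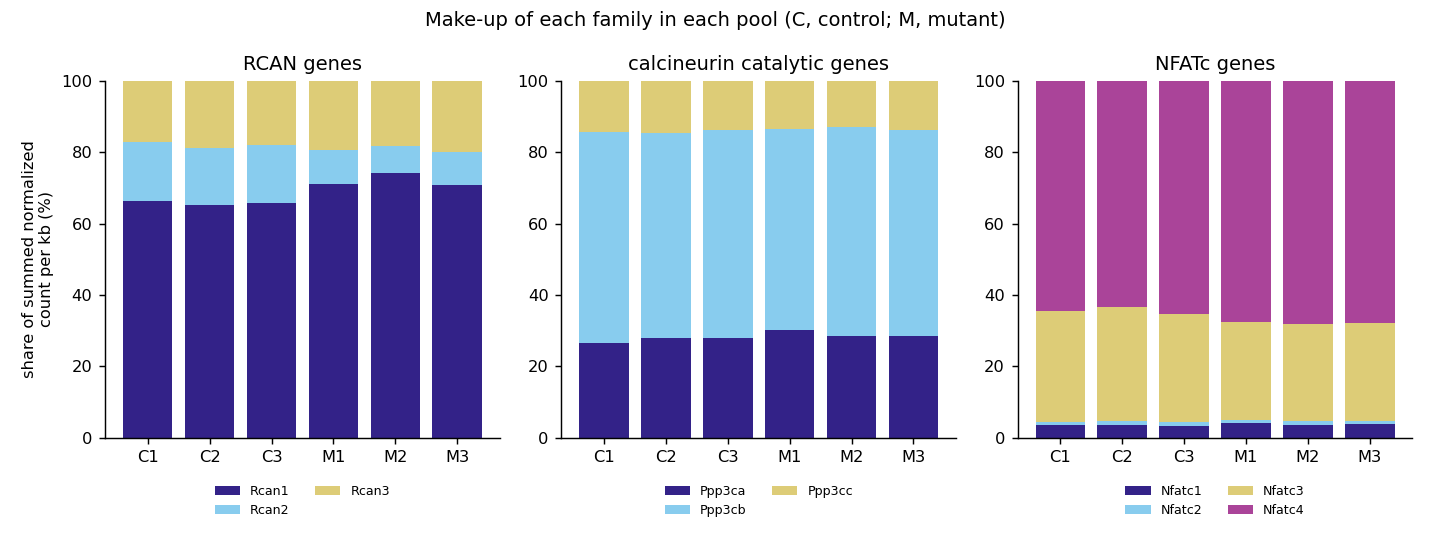
Share of each gene in the summed normalized count per kb of its family (bars, in %) in control pools (C1 to C3) and mutant pools (M1 to M3). The share of *Rcan2* is 16.1% to 16.5% in control and 7.51% to 9.67% in mutant pools, and *Nfatc1* and *Nfatc2* are small in every pool.

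Markers of the cell types in the lung were set beside the genes above, and genes past the threshold of limma were found in the epithelial and mesenchymal lists alone of 9 lists. *Nkx2-1*, the transcription factor that marks lung epithelium, was present at 1977 to 2686 normalized counts in every pool of the labelled lungs. Of 10 epithelial markers, 8 were lower and 4 of these had an adjusted p under 0.05 (limma). These 4 were *Cdh1* (log2 difference -0.97), *Cldn6* (-0.71), *Krt8* (-0.55) and *Krt18* (-0.46). *Nkx2-1* (-0.25), *Epcam* (-0.27) and *Foxa2* (-0.24) differed less, and *Shh* (-0.03) and *Id2* (0.01) were nearly level. *Sftpc* (0.04) was uneven in the controls, at 277, 296.5 and 138.2 normalized counts, against 223.8, 225.5 and 244.4 in the mutants. In control pool 3, *Nkx2-1* (2060) and *Epcam* (1560) were inside the range of the mutant pools. The summed level of the 10 markers was 15071 to 17151 in control and 12076 to 13116 in mutant pools, a log2 ratio of -0.36. *Id2* held 2909 to 3404 of this sum in control and 3002 to 3253 in mutant pools, so the sum depends on the list. *Rcan2* was lower by more than this sum. Its log2 ratio to the summed epithelial markers was -5.33 ± 0.09 in control and -5.89 ± 0.15 in mutant lungs (SD, n = 3 pools each). Of the single markers, *Cdh1* was lower by more than *Rcan2* and the others by less or not at all.

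Of 10 endothelial markers, 9 were higher in the mutant pools and 0 had an adjusted p under 0.05 in limma. Their summed level was 12861 to 14462 in control and 14526 to 15272 in mutant pools. All 5 genes of the endocardial list were higher, with sums of 4489 to 5410 and 5663 to 5941. Whether these genes mark endocardium alone in these lungs was not tested. The log2 ratio of *Nfatc1* to the summed endothelial markers was -5.76 ± 0.14 in control and -5.68 ± 0.06 in mutant lungs (SD, n = 3 pools each), and these ranges overlapped. Mesenchymal markers, all 10 higher, summed to 92097 to 99180 and 112794 to 121080, with 4 called. These 4 were *Col1a1* (log2 difference 0.49), *Col1a2* (0.34), *Col3a1* (0.26) and *Fgf10* (0.64), and the collagen genes held most of the sum. The other mesenchymal markers were at 0.03 (*Foxf1*) to 0.19 (*Tcf21*). For smooth muscle, 5 of 6 markers were higher, with sums of 7291 to 9070 and 9655 to 10658. The other lists held 0 called genes in limma and their sums overlapped between the groups. Cardiac muscle markers (6 of 9 lower) summed to 1082 to 1246 and 1011 to 1113, and immune markers (7 of 7 higher) to 1773 to 2690 and 2416 to 2471. Neural markers (5 of 7 lower) summed to 2066 to 2192 and 1720 to 2142, and erythroid markers (3 of 6 tested higher) to 98597 to 126807 and 97591 to 121831. Of all these markers, 1 was at 0 in every pool, the erythroid *Hba-a1*. The part of these shifts in the differences of *Rcan2*, *Nfatc1* or the other genes was not tested.

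The genes with the pattern most like that of *Rcan2* over the 6 pools were looked for with the Euclidean distance between centred log2 values. This search was added after the value of *Rcan2* had been seen. The nearest was *Cdh1*, which encodes E-cadherin of epithelial cells, at a distance of 0.19, with 1507, 1522 and 1288 normalized counts in the controls, against 824, 630 and 753 in the mutants. Both genes were lowest in mutant pool 2. The log2 ratio of *Rcan2* to *Cdh1* was -1.82 ± 0.12 in control and -1.77 ± 0.03 in mutant lungs (SD, n = 3 pools each). *Cdh1* was picked for its likeness to *Rcan2* in these pools, so a nearly level ratio follows from the search. Next came *Alpl* (alkaline phosphatase) at 0.19, with counts of 302 to 312 and 151 to 190, and *Slc5a8* at 0.23, which had fewer than 5 counts in any pool. For *Rcan1* the nearest were *Epha7* (distance 0.03), *Zfp768* (0.03) and *Gtdc1* (0.04), with log2 differences of 0.11, 0.11 and 0.10. Genes with a difference of like size are near in this measure whatever their role.

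**Figure D4:**
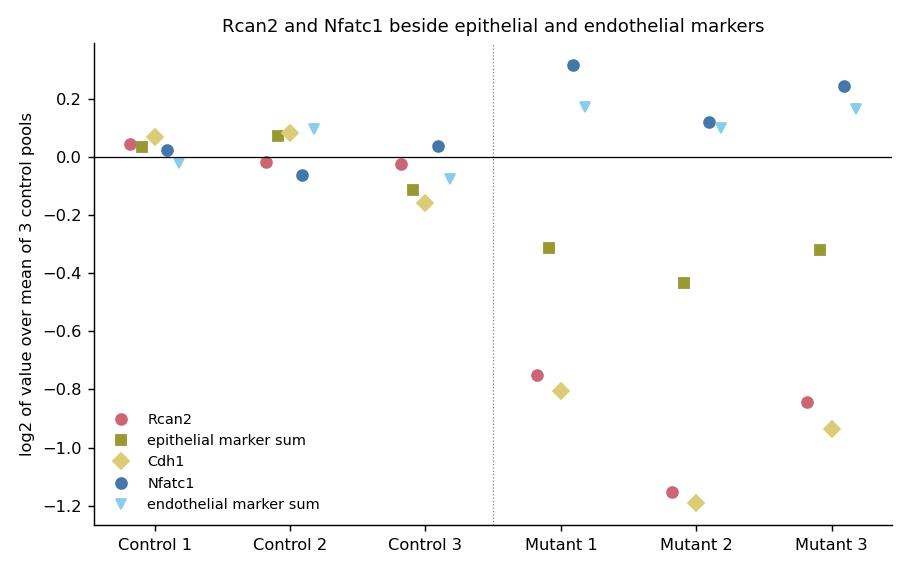
Log2 of the value in each pool over the mean of the 3 control pools, for *Rcan2*, *Cdh1*, the sum of 10 epithelial markers, *Nfatc1* and the sum of 10 endothelial markers. In all mutant pools *Rcan2* and *Cdh1* lie close together below the epithelial sum, and *Nfatc1* and the endothelial sum lie above 0. *Cdh1* was picked for its likeness to *Rcan2* in these pools.

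Genes next to *Rcan2* on chromosome 17 were compared with it. Of the 5 tested on either side, 0 had an adjusted p under 0.05 (limma), with adjusted p from 0.399 to 0.952. *Cyp39a1*, just before it, was at a log2 difference of 0.10, and *Enpp5*, just after it, at 0.03. The largest in size was *1700071M16Rik* at 0.77, with means of 1.99 and 3.99 normalized counts. *Runx2*, the fourth gene after *Rcan2*, was lower in every mutant pool than in any control pool (log2 difference -0.32, limma adjusted p = 0.399), and *Supt3*, the fifth, was higher in every mutant pool (0.13, limma adjusted p = 0.471). The other 8 overlapped between the groups. Over all tested genes, 20.2% did not overlap, so nothing is read from *Runx2* and *Supt3*.

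Other genes of the pathway were taken from 6 lists written from general knowledge, with 93 genes of which 89 were tested. In limma 0 of the 89 had an adjusted p under 0.05 (the lowest was 0.121), beside 0.501% of all tested genes. Before adjustment, 7 of the 89 had a p under 0.05 in limma, with 5 genes above and 2 below the control level. Over all 17168 tested genes, 2328 had an unadjusted p under 0.05 in limma. In edgeR on the recovered reads, 0 of 78 tested had an adjusted p under 0.05 and 5 an unadjusted p under 0.05. The median log2 difference of the 89 genes was 0.03. None of the differences named in what follows passed the test over all genes.

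Calcium supply was the largest list, with 27 genes for channels, pumps, phospholipases and calmodulin. Its median log2 difference was 0.05, beside -0.0021 over all tested genes. Of the 27 genes, 20 were above 0 and 7 below. Whether they moved together was not tested. *Atp2a2*, the pump that returns calcium to the endoplasmic reticulum, had 7247, 7421 and 7850 normalized counts in the control pools, against 6584, 6811 and 6654 in the mutant pools. Its groups did not overlap (log2 difference -0.17, limma adjusted p = 0.124). *Plcb1*, a phospholipase that starts calcium release, was at 511 ± 13.4 and 564 ± 24.1 (SD, n = 3 each, limma adjusted p = 0.363).

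NFAT partners numbered 14 tested genes, with a median log2 difference of 0.02. *Gata6*, a GATA factor of lung endoderm and mesoderm, had 2560, 2604 and 2440 normalized counts in the control lungs, against 2815, 3060 and 2841 in the mutant lungs (log2 difference 0.20, limma adjusted p = 0.121). *Mef2c*, which acts in muscle and endothelium, was at 1029, 944 and 1023 and at 1170, 1123 and 1195 (log2 difference 0.22, limma adjusted p = 0.127). It passed the threshold without control pool 3 (limma adjusted p = 0.0414). *Jun*, the AP-1 subunit, was at 2317 ± 51.6 in control and 2085 ± 162 in mutant pools (SD, n = 3 each, limma adjusted p = 0.272). Its log2 difference was -0.15, and -0.09 without mutant pool 2.

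Of 15 NFAT kinases and shuttling genes, 0 had an unadjusted p under 0.05 in limma or in edgeR, and the median log2 difference was -0.01. Among 11 further calcineurin subunits and regulators the median was 0.02. *Ppia*, which encodes cyclophilin A, the receptor of the calcineurin inhibitor cyclosporin, ranged from 11798 to 23046 in control pools and from 21331 to 22420 in mutant pools (log2 difference 0.42, limma adjusted p = 0.345). It was 0.67 without control pool 1, 0.18 without control pool 2 and 0.78 with the *Xist* value as a covariate. Its groups overlapped, and reads of *Ppia* can be shared with its many processed copies. Of 11 other calcineurin substrates, 0 had an unadjusted p under 0.05, with a median of 0.05.

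The 11 tested genes known to respond to calcium or NFAT had a median log2 difference of -0.05, with 5 above and 6 below 0. *Tnf* had the lowest p of this list, but at 3.93, 1.03 and 0 normalized counts in the controls, against 8.17, 5.88 and 6.87 in the mutants (limma adjusted p = 0.202). These values are a few reads at most, and the log2 difference of 1.88 was 3.19 with a pseudocount of 0.1.

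**Figure D5:**
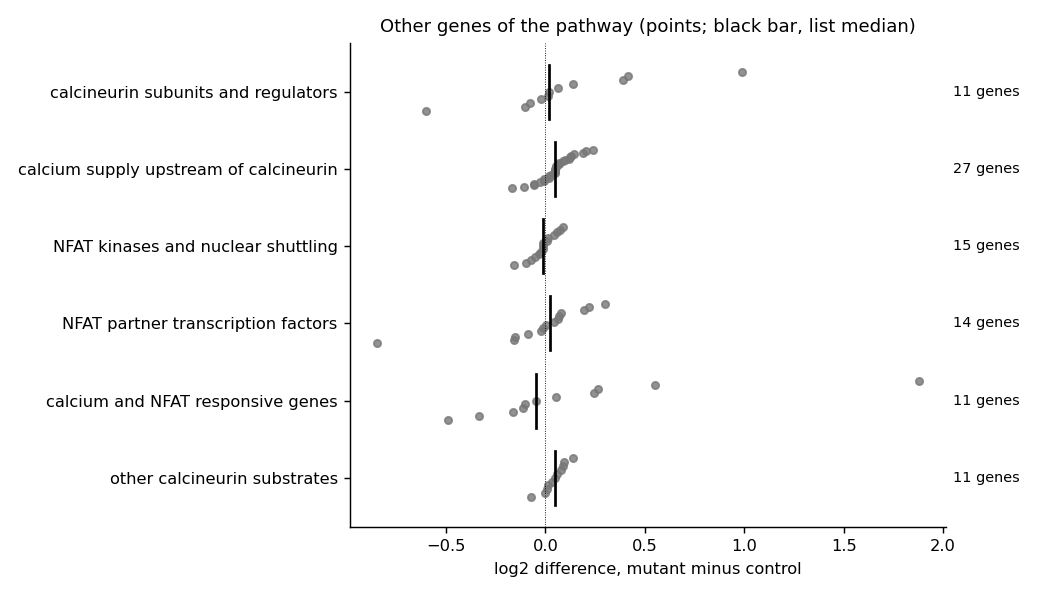
Log2 difference between mutant and control pools for the 89 tested genes of 6 pathway lists (points), with the median of each list (black bar) and its number of genes at the right. All 6 medians lie between -0.05 and 0.05, and the widest points, such as *Tnf* at 1.88, are genes with few counts.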

How the data were processed

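The authors deposited 1 table for 6 libraries of pooled lungs. The unit is a signal, a normalized count: the authors scaled each library's reads with a size factor before they deposited them. The submitters' processing notes name Trim Galore, HISAT2, featureCounts, DESeq2 and mm10, without versions. The deposited log2 fold changes, test statistic (a score), p-values and mean column are the authors' own comparison and were not used. The numbers of reads were recovered, since 100.0% of values above 0 were whole multiples of 1 step in each library (tolerance 0.1).

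Genes that reached a value of 1 in 3 or more libraries were tested with limma 3.58.1 in R 4.3.3 (lmFit, eBayes with trend) on log2(value + 1), with Benjamini-Hochberg adjustment, a threshold of 0.05 and no replicate block. Fold changes on this scale understate those of low genes. EdgeR 4.0.16 (quasi-likelihood, TMM) on recovered reads and *Xist* as a covariate were added after seeing the data. The authors used littermate controls and combined mutants from different litters for statistics, but do not say which litters went into each pool. The p-values therefore measure the spread between these pools.

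The members and lists were chosen with earlier results of these data known. Text names all 10 members, pathway genes called or up to 3 per list with the lowest unadjusted p under 0.05, and the 3 nearest patterns to *Rcan1*. Neighbours of *Rcan2* on its chromosome, its nearest patterns, *Ppp3cc* and the single epithelial and mesenchymal markers were named after their values were seen. Coordinates and exon lengths are from GENCODE M21 (GRCm38, the same assembly as mm10), by symbol. *Saraf*, *Adgre1* and *Hbb-bs* were found under older symbols.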

Additional observations from a re-analysis of the deposited data

How the results depend on the processing

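In 14 alternative settings the log2 difference of *Rcan2* was between -1.04 and -0.79. *Rcan2* had an adjusted p under 0.05 in 11 of them (limma or edgeR). The gene was chosen with its values known, so nothing is read from this count. Of 140 values of the 10 genes under these settings, 135 moved by less than 1 SD between pools. The other 5 were those of *Rcan3* (-0.03), *Ppp3cb* (0.03), *Ppp3r1* (0.17), *Nfatc3* (-0.07) and *Nfatc4* (0.26) with *Xist* as a covariate, and the cause was not tested. Limma without the trend called 8 genes in all and 0 of the 10. Leaving out 1 pool gave 1 to 468 genes in all, 0 to 1 of the 10 (0 without control pool 1 or mutant pool 3), and 0 to 1 pathway genes (1, *Mef2c*, without control pool 3). EdgeR called 79 genes and the *Xist* covariate 68. Between 6 and 7 of the 10 genes were higher in the mutant pools in every setting. With the replicate number as a block, limma called 71 genes in all and 0 pathway genes. The correlations of same-numbered pools were -0.03, 0.20 and 0.07, beside -0.18 to 0.14 for pools of unlike number. With so few pools they cannot show whether same-numbered pools shared litters or handling. The depth, about 75 to 103 reads of *Nfatc2* per pool, limits what can be said of that gene.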
